A study of Mus musculus with 16 samples.

Results

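The genes of the presynaptic vesicle release machinery encode the proteins that dock, prime and fuse synaptic vesicles. They were represented here by 60 genes, of 18193 genes with a probe set assigned to exactly 1 symbol. Their symbols alone chose them: the numbered synaptotagmins (Syt), syntaxins (Stx), VAMPs, SNAPs, complexins (Cplx) and RIMs (Rims), and the synapsins (Syn), SV2 proteins and Unc13 proteins. The brightest such probe set of a gene, by its mean over the 16 arrays, gave its level. Of the 60 genes, 54 were bright enough to be tested, among 13011 genes tested in all. Cplx4, Stx11, Stx19, Sv2c, Syt10 and Unc13d lay below the brightness filter of 5.94 (log2), with means of 4.56 to 5.79, and received no test. Sv2c, the SV2 protein known for its abundance in the basal ganglia, averaged 5.60.

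Transcript levels had been measured in whole striatum of mice on a B6xCBA background with Affymetrix mouse genome expression arrays, and every level below is a log2 probe-set value. The 4 genotypes, with 4 biological replicates each, were R6/2 x DREAM+/-, R6/2, DREAM+/- and wild type. R6/2 is a transgenic model of Huntington's disease in which a fragment of mutant human huntingtin, encoded by exon 1, is expressed from the human huntingtin promoter. DREAM+/- animals are heterozygous for inactivation of Kcnip3, whose product DREAM is a calcium-regulated transcriptional repressor, and were obtained from DREAM knockout mice. Age, sex and the number of animals behind each RNA sample were not stated in the labels. The study asked how striatal transcription differs when the R6/2 transgene and lowered DREAM are present alone and together.

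The targeted gene was lower in both groups labelled DREAM+/-. On each background it was also lower with the transgene, with no overlap. Kcnip3 lay at 7.43 to 7.67 in R6/2 x DREAM+/- arrays, 9.04 to 9.23 in R6/2, 7.72 to 7.82 in DREAM+/- and 9.41 to 9.89 in wild type. Array medians lay between 6.54 and 6.58. Although the labels name striatal neurons, the tissue was bulk: all 7 astrocyte markers, 6 microglial markers and 5 choroid plexus markers passed the brightness filter. Markers of medium spiny neurons, the principal striatal cell type, averaged 11.05 to 11.43 in R6/2 x DREAM+/-, 11.17 to 11.34 in R6/2, 11.72 to 11.83 in DREAM+/- and 11.84 to 11.95 in wild type. The choroid plexus mean lay at 9.51 to 10.57, 7.86 to 9.50, 8.80 to 10.56 and 8.96 to 9.44 in the same order of genotypes. A pair of arrays is said below to stand apart: 1 by its release gene values and 1 by its Xist level. R6/2 x DREAM+/- replicate 3 held the highest value of its group for 32 of the 54 release genes and the lowest for 9, while the other replicates held the highest for 6 or 7. R6/2 replicate 1 had an Xist level of 6.49, against 11.95, 11.86 and 11.58 on the other R6/2 arrays. Eif2s3y, used below as a covariate, read 8.91 on that array and 6.57, 6.71 and 7.36 on the other R6/2 arrays. It also varied elsewhere, at 7.34, 7.39, 6.23 and 7.42 in R6/2 x DREAM+/- and 7.85, 7.96, 8.05 and 7.51 in DREAM+/-. Wild-type arrays read 6.16, 6.46, 7.80 and 7.55. Xist was 11.04 or higher on every array but R6/2 replicate 1. Wild-type replicates 3 and 4 also differed: their correlation, 0.9903, was the lowest between replicates of any group. Array weights from limma were 0.675 and 0.522 for them, 1.098 for R6/2 replicate 1 and 0.305 for R6/2 x DREAM+/- replicate 3. Both wild-type arrays stayed in the fits below that left out the pair.

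Fusion of a synaptic vesicle is driven by the SNARE complex, in which VAMP2 on the vesicle zippers with syntaxin 1 and SNAP25 on the plasma membrane. Synaptotagmins are the calcium sensors that couple this step to the action potential, complexins clamp and promote it, RIM and Munc13 (Unc13) proteins prime vesicles at the active zone, and synapsins hold the reserve pool. In the striatum these proteins act in the axon collaterals of medium spiny neurons, in local interneurons, and in cortical, thalamic and dopaminergic terminals. RNA of such long-range terminals lies mostly in cell bodies outside the striatum. The symbol rule also took in SNAREs of the Golgi, endosomes and lysosomes, and Snap91, a clathrin assembly protein.

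Promoter sequence is shown for 4 genes: Cplx3, Unc13a and Syt2, which fell together in R6/2 striatum, and Syn1, a synapsin that holds a motif few promoters had. RefSeq promoters (GRCm38.p6) were found for 45 of the 60 genes, and the 250 bases before each annotated start were searched on both strands for 4 motifs. These were TCAGCAC and GGACAG, parts of the RE1 element bound by the neuronal repressor REST, GTCAAGG, the core of the DRE bound by DREAM, and TGACG, part of the CRE bound by CREB. Sequences run 5′ to 3′ on the gene's strand, and capitals mark motif matches on either strand.
Cplx3, chr9:57606282-57606531, minus strand: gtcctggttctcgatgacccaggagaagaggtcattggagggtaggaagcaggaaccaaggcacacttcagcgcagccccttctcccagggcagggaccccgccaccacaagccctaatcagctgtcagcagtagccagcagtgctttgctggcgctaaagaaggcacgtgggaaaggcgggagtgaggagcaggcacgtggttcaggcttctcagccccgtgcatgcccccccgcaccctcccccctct
Unc13a, chr8:71671758-71672007, minus strand: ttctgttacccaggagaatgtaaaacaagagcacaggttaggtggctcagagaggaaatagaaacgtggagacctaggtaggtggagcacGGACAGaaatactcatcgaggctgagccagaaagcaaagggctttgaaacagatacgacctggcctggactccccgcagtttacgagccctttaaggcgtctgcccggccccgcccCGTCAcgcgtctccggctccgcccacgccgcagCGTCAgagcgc
Syt2, first listed start, chr1:134646362-134646611, plus strand: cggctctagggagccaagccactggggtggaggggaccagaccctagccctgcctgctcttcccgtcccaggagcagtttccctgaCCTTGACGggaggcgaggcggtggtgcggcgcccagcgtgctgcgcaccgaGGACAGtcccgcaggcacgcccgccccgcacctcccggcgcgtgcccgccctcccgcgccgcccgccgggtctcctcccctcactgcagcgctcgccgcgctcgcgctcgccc
Syn1, chrX:20920919-20921168, minus strand: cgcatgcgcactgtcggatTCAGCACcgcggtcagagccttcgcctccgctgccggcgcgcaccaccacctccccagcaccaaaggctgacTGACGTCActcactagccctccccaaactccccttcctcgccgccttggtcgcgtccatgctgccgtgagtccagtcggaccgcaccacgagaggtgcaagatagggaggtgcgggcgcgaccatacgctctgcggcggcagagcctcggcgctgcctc
The Cplx3 window held none of the 4 motifs, and Unc13a held GGACAG once and TGACG on the opposite strand at 2 places. In Syt2, GTCAAGG on the opposite strand overlapped TGACG. In Syn1, TCAGCAC began at -231 from the start and a pair of overlapping TGACG matches followed it. TCAGCAC was in 3.33% of the 60 promoters of the release genes, those of Syn1 and Syt8, and in 4.23% of 32851 promoters in all. GTCAAGG was in 3.33%, those of Syt11 and Syt2, against 2.75% of all promoters. GGACAG was in 25% against 18.7%, and TGACG in 16.7% against 17.8%. A match shows the letters only, not a bound site.

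In R6/2 striatum 12 of the 54 release genes differed from wild type and 42 did not pass the test. The 7 genes that fell were the complexin Cplx3, the priming factor Unc13a, the vesicle glycoprotein gene Sv2b and the synaptotagmins Syt2, Syt9, Syt12 and Syt13. The 5 genes that rose, Snap47, Stx12, Stx17, Stx18 and Stx7, are SNAREs or SNAP relatives of general membrane traffic. The drop was steepest for Cplx3, which stood at 52.8% of wild type (log2 change -0.92, limma, adjusted p = 2.68e-05). The share called, 22.2%, was near that of all genes, of which 25.4% passed, 13.5% higher and 11.9% lower. At an unadjusted p under 0.05 there were 17 release genes, and 37.4% of all genes. The groups did not overlap for 6 release genes that were higher in R6/2 and 9 that were lower, where all genes gave 13.4% and 11.8%. With the arrays shifted to a common median the split was 3 higher and 8 lower, and 22.1% of all genes passed. The count was 10 without R6/2 replicate 1 (5 higher and 5 lower, 9 of the 12 among them), 15 without R6/2 x DREAM+/- replicate 3 (6 higher and 9 lower, with all 12) and 14 without both (7 higher and 7 lower, 11 of the 12 among them). In the same order, 21.7%, 28.6% and 25.2% of all genes passed. Without wild-type replicate 3 the count was 14 (5 higher and 9 lower), with 21.9% of all genes. Without wild-type replicate 4 it was 9 (4 higher and 5 lower), with 24.2% of all genes. The median change of the 54 genes was -0.03, against 0.03 over all genes tested. In bulk tissue, fewer cells of a type and less RNA per cell cannot be told apart.

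On the DREAM+/- background many of the same genes passed. There, 11 release genes (20.4%) differed in R6/2 x DREAM+/- striatum from DREAM+/-. Cplx3, Unc13a, Syt9 and Syt12 fell, and Snap47, Stx12, Stx17, Stx18, Sv2a, Syt4 and Unc13b rose. Of all genes 14.9% passed, 7.07% higher and 7.87% lower. At an unadjusted p under 0.05 there were 16 release genes and 28.2% of all genes. The groups did not overlap for 6 higher and 4 lower release genes, against 10.4% and 8.46% of all genes, and the median change was -0.02 (0.02 over all genes). Without R6/2 x DREAM+/- replicate 3 the count was 18, with 7 higher and 11 lower, and 17.7% of all genes passed. Without both arrays that stood apart it was also 18, with 17.4% of all genes, each time with 10 of the 11.

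These 2 comparisons share no groups, but the fit took its spread from all 16 arrays, so their tests are not independent. With only the 8 arrays compared, Unc13a and Stx17 did not pass in R6/2 x DREAM+/- against DREAM+/-. The rest of the genes passing in both as fitted still did. Of the release genes, 8 passed in both, which is 66.7% of the R6/2 list and 72.7% of the R6/2 x DREAM+/- list, and all 8 kept their sign. Over all genes, 1463 passed in both, 44.2% and 75.3% of the lists. The changes of the 54 genes had the same sign for 45 and a Pearson correlation of 0.850 across genes, against 0.798 across all genes tested, and genes are not independent replicates. The plot of both transgene effects shows the 4 lower and 4 higher genes at opposite ends of the diagonal.

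**Figure D1:**
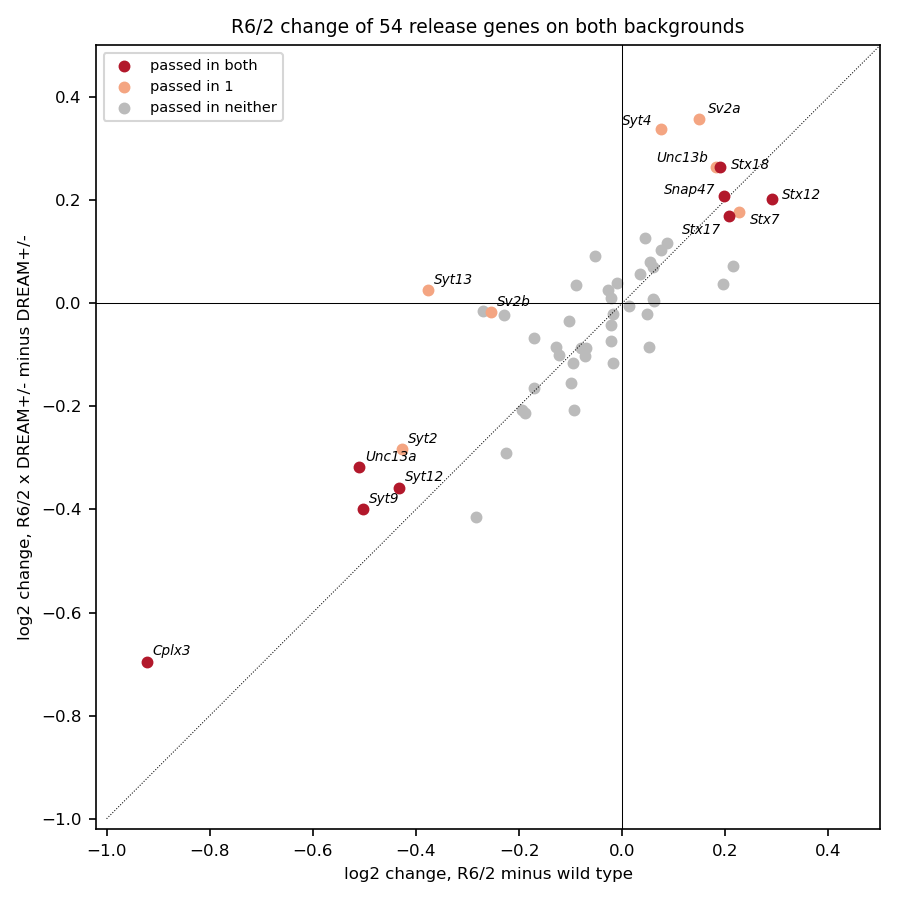
Log2 change of 54 release genes in R6/2 against wild type (x axis) and in R6/2 x DREAM+/- against DREAM+/- (y axis); each point is 1 gene, the dotted line marks equal changes, and colour gives whether the gene passed in both comparisons, in 1 or in neither. Cplx3 lies farthest to the lower left, at -0.92 and -0.70.

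As fitted and on their chosen probe sets, Snap25, Syt1, Vamp1, Vamp2, Stx1a, the synapsins and Cplx1 passed in no comparison. Several of them passed under alternatives. Snap25, the plasma membrane SNARE cleaved by several botulinum toxins, read 13.34, 13.34, 13.24 and 13.33 in R6/2 x DREAM+/-, 13.30, 13.41, 13.37 and 13.35 in R6/2, 13.32, 13.35, 13.39 and 13.33 in DREAM+/- and 13.45, 13.46, 13.41 and 13.52 in wild type. The R6/2 and wild-type arrays touched at 13.41, and every DREAM+/- array lay below wild type, by 0.11 on average (adjusted p = 0.185). The R6/2 difference from wild type was -0.10 (adjusted p = 0.103), and passed lower with trended robust variance. Syt1, the fast calcium sensor of most forebrain synapses, read 12.84, 12.81, 12.93 and 12.90 in R6/2 and 13.00, 13.04, 12.96 and 12.99 in wild type. These groups did not overlap, yet the change of -0.13 missed the threshold (adjusted p = 0.0605). Syt1 passed lower there with the 60th percentile filter, the arrays shifted to a common median or trended robust variance. It also did so without R6/2 x DREAM+/- replicate 1. Stx1a, partner of Snap25, differed by -0.27 (adjusted p = 0.105) and Vamp1, the VAMP of fast synapses, by -0.10 (adjusted p = 0.268). Without R6/2 x DREAM+/- replicate 2, Stx1a passed lower in R6/2 and higher in R6/2 x DREAM+/- against R6/2. Vamp1 passed lower in R6/2 x DREAM+/- against DREAM+/- with the mean of probe sets. Against R6/2 it did so without R6/2 x DREAM+/- replicate 3.

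Vamp2, the main vesicle SNARE of the forebrain, read 11.82, 11.66, 12.20 and 11.63 in R6/2 x DREAM+/-, 12.07, 12.25, 12.25 and 12.27 in R6/2, 11.68, 11.78, 11.87 and 11.69 in DREAM+/- and 11.75, 12.28, 11.63 and 12.32 in wild type. Wild-type arrays lay at both ends of the range, and the R6/2 difference of 0.22 did not pass (adjusted p = 0.28). Against R6/2, Vamp2 in R6/2 x DREAM+/- differed by -0.38 and did not pass as fitted, and the other probe set gave -0.55. It passed lower there with the mean of probe sets, with array weights, and without R6/2 x DREAM+/- replicate 3, wild-type replicate 3 or both arrays that stood apart. Syn1, the most studied synapsin, had the same uneven wild-type group, at 11.73, 12, 11.56 and 12.03. Its R6/2 x DREAM+/- arrays, at 11.67, 11.60, 11.85 and 11.85, all lay below the R6/2 arrays, at 11.89, 12.09, 12.07 and 12.05. The difference of -0.28 had a 95% interval of -0.48 to -0.09 and an adjusted p of 0.0507. Syn1 passed lower there with the 60th percentile filter, trended robust variance, array weights, only the 8 arrays compared or either covariate. The same held without R6/2 x DREAM+/- replicate 3, R6/2 replicate 1, wild-type replicate 2, 3 or 4, or both arrays that stood apart. Syn2 and Syn3 did not pass: their R6/2 changes were -0.09 (adjusted p = 0.363) and -0.07 (adjusted p = 0.524). Cplx1, the complexin of many inhibitory neurons, differed by -0.02 in R6/2 (adjusted p = 0.804). It passed lower in R6/2 x DREAM+/- against R6/2 with the mean of probe sets.

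**Figure D2:**
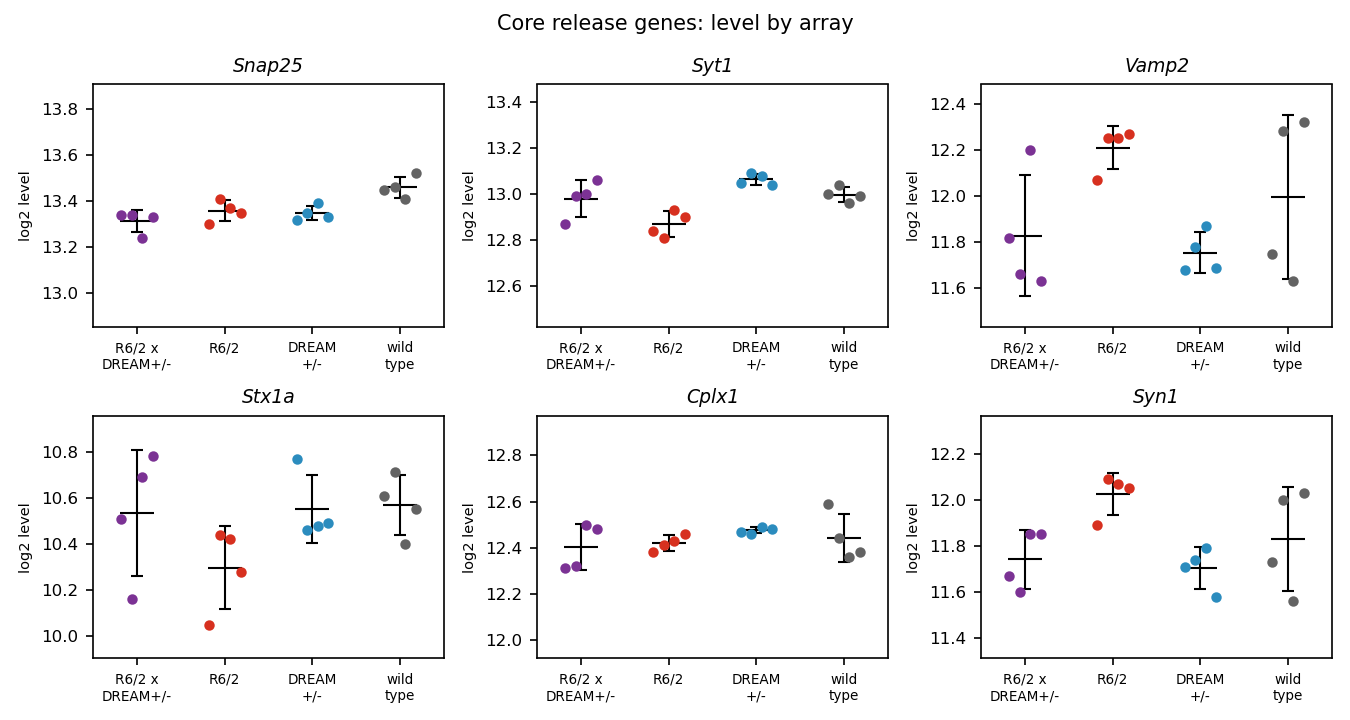
Log2 level of 6 core release genes on each array in R6/2 x DREAM+/-, R6/2, DREAM+/- and wild type; points are arrays, and bars give the mean and SD (n = 4 each). As fitted, none of the 6 passed in any comparison, though each passed under an alternative. Wild-type Vamp2 splits into values of 11.63 and 11.75 and values of 12.28 and 12.32.

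Cplx3, a complexin known from retinal ribbon synapses and cortical subplate neurons, showed the widest separation. It read 7.51, 7.86, 8.11 and 7.80 in R6/2 x DREAM+/- and 7.48, 7.46, 7.69 and 7.75 in R6/2. DREAM+/- arrays read 8.65, 8.57, 8.63 and 8.21, and wild-type arrays 8.60, 8.57, 8.31 and 8.59. No array with the transgene reached any array without it. The change was -0.92 in R6/2 against wild type (95% interval -1.17 to -0.67) and -0.70 in R6/2 x DREAM+/- against DREAM+/- (-0.94 to -0.45, adjusted p = 0.000642), where the level was 61.8% of DREAM+/-. Both calls held when any single array was left out. Cplx2, the main complexin of excitatory neurons, did not pass, with a change of -0.23 in R6/2 (adjusted p = 0.139) and -0.29 in R6/2 x DREAM+/- against DREAM+/- (adjusted p = 0.0831).

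Among the 7 tested priming proteins, Unc13a fell in both comparisons. Unc13a encodes Munc13-1, which opens syntaxin 1 so that vesicles become fusion competent. It read 8.31, 8.57, 9.02 and 8.60 in R6/2 x DREAM+/- and 8.32, 8.43, 8.34 and 8.50 in R6/2, against 8.87, 9.01, 9.02 and 8.87 in DREAM+/- and 8.88, 8.94, 8.91 and 8.90 in wild type. The R6/2 and wild-type groups were clear of each other, whereas R6/2 x DREAM+/- replicate 3 lay among the DREAM+/- arrays. The R6/2 change was -0.51 (-0.72 to -0.30, adjusted p = 0.00133). The R6/2 x DREAM+/- change was -0.32 (-0.53 to -0.11, adjusted p = 0.0414) and did not hold without 1 of 10 arrays: R6/2 x DREAM+/- replicate 1, 2 or 4, any DREAM+/- replicate, R6/2 replicate 3 or wild-type replicate 1 or 2 (adjusted p up to 0.136).

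Unc13b, which encodes the related Munc13-2, moved the other way. It read 7.97, 8.05, 8.25 and 8.19 in R6/2 x DREAM+/- and 7.79, 7.80, 7.87 and 7.94 in DREAM+/-, with no overlap. That rise of 0.27 passed (0.12 to 0.41, adjusted p = 0.014), while the R6/2 difference from wild type, 0.18, did not (adjusted p = 0.0601). The RIM genes, scaffolds that tether vesicles and calcium channels, did not pass on their chosen probe sets. Rims1 differed by -0.17 (adjusted p = 0.179) and Rims4 by -0.23 (adjusted p = 0.208) in R6/2, and Rims3 by -0.32 in R6/2 x DREAM+/- against R6/2 (adjusted p = 0.129). Unc13c, the Munc13 best known from cerebellum, was lower by 0.24 in DREAM+/- than in wild type with no overlap, and missed the threshold (adjusted p = 0.136).

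Of the 7 tested calcium-binding synaptotagmins of release, Syt2 and Syt9 fell in R6/2. Both are fast calcium sensors in mouse neurons, as is Syt1. Syt9 read 7.27, 7.19, 7.49 and 7.47 in R6/2 x DREAM+/- and 7.15, 7.35, 7.47 and 7.02 in R6/2. It read 7.75, 7.55, 8.0 and 7.72 in DREAM+/- and 7.70, 7.75, 7.96 and 7.59 in wild type. Every array with the transgene lay below every array without it. The changes were -0.50 in R6/2 (-0.73 to -0.27, adjusted p = 0.00268) and -0.40 in R6/2 x DREAM+/- against DREAM+/- (-0.63 to -0.17, adjusted p = 0.0187). The R6/2 x DREAM+/- call was lost without R6/2 x DREAM+/- replicate 1 or 2 or DREAM+/- replicate 3, with adjusted p up to 0.0738.

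Syt2 read 8.24, 8.22, 8.28 and 8.28 in R6/2, against 8.83, 8.71, 8.41 and 8.78 in wild type, and the groups were apart. The change was -0.43 (-0.65 to -0.21, adjusted p = 0.00618). The R6/2 x DREAM+/- arrays read 7.98, 8.09, 8.59 and 8.17, against 8.45, 8.51, 8.56 and 8.44 in DREAM+/-, and replicate 3 again lay above the others of its group. That difference, -0.28, did not pass (adjusted p = 0.0809). Syt2 has 3 probe sets, and in a fit of every probe set all 3 were lower in R6/2 and passed, with changes of -0.65 to -0.43. For R6/2 x DREAM+/- against DREAM+/- 2 of the 3 passed, with changes of -0.83 to -0.28 over the 3. Syt7, a slow calcium sensor of asynchronous release, did not pass in R6/2 (-0.19, adjusted p = 0.219).

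Synaptotagmins outside the calcium-sensor list included 3 with calls. Syt12, which does not bind calcium, read 7.87, 8.12, 8.26 and 8.11 in R6/2 x DREAM+/- and 8.12, 8.20, 8.21 and 8.22 in R6/2, against 8.45, 8.40, 8.45 and 8.49 in DREAM+/- and 8.50, 8.77, 8.52 and 8.69 in wild type. The transgenic arrays lay wholly below the others. The changes were -0.43 in R6/2 (-0.59 to -0.28, adjusted p = 0.000382) and -0.36 in R6/2 x DREAM+/- against DREAM+/- (-0.51 to -0.20, adjusted p = 0.0031).

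Syt4, a synaptotagmin of dense-core vesicles, read 10.83, 10.65, 10.74 and 10.61 in R6/2 x DREAM+/- and 10.86, 10.78, 10.67 and 10.56 in R6/2. DREAM+/- arrays read 10.40, 10.44, 10.18 and 10.46, and wild-type arrays 10.73, 10.57, 10.67 and 10.60. The DREAM+/- group alone stood below the others, with no overlap. Syt4 rose in R6/2 x DREAM+/- against DREAM+/- by 0.34 (0.18 to 0.49, adjusted p = 0.00515). DREAM+/- differed from wild type by -0.27 (-0.43 to -0.12), which missed the threshold narrowly (adjusted p = 0.0509). The other Syt4 probe set gave 0.095 and -0.155 in these comparisons. In the fit of every probe set, 1 of the 2 passed in the first comparison and 0 in the second.

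The SV2 proteins are vesicle glycoproteins that serve as botulinum toxin receptors, and SV2A binds the antiepileptic drug levetiracetam. Sv2a read 10.43, 10.72, 11.13 and 10.62 in R6/2 x DREAM+/-, against 10.32, 10.38, 10.34 and 10.43 in DREAM+/-. The groups met at 10.43, and R6/2 x DREAM+/- replicate 3 gave the highest value. The rise was 0.36 (0.15 to 0.56, adjusted p = 0.0191), and the call was lost without DREAM+/- replicate 1 (adjusted p = 0.0536). It was also lost with only the 8 arrays compared and with Eif2s3y as a covariate. In R6/2 against wild type Sv2a differed by 0.15 (adjusted p = 0.278).

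As fitted, calls among the SNAREs of general traffic were in the higher direction in both transgene comparisons. Of the 20 tested, 5 were higher and 0 lower in R6/2, and 4 were higher and 0 lower in R6/2 x DREAM+/- against DREAM+/-. Over all genes the shares were 13.5% higher and 11.9% lower in R6/2, and 7.07% and 7.87% in R6/2 x DREAM+/-. Shifting the arrays to a common median took away the R6/2 calls of Stx18 and Stx7 and the R6/2 x DREAM+/- call of Stx17. The syntaxin gene Stx3 passed on the lower side in both comparisons with array weights. It also did so in both without R6/2 x DREAM+/- replicate 3. In R6/2 it did so with the replicate block and without R6/2 x DREAM+/- replicate 2 or wild-type replicate 2. In R6/2 x DREAM+/- it did so without wild-type replicate 1, without both arrays that stood apart or with Eif2s3y as a covariate. Among the other 34 release genes the counts were 0 higher and 7 lower in R6/2, and 3 higher and 4 lower in R6/2 x DREAM+/- against DREAM+/-, with median changes of -0.10 and -0.05. Of these genes, Unc13b passed higher in R6/2 without R6/2 x DREAM+/- replicate 1 or 3, R6/2 replicate 1 or wild-type replicate 1. It also did so without both arrays that stood apart and with either covariate. Snap47, a SNAP25 relative found on intracellular membranes, read 12.73, 12.76, 12.75 and 12.86 in R6/2 x DREAM+/-, 12.61, 12.61, 12.65 and 12.61 in R6/2, 12.59, 12.54, 12.51 and 12.63 in DREAM+/- and 12.45, 12.46, 12.41 and 12.37 in wild type. All R6/2 x DREAM+/- arrays were above all others, and all wild-type arrays below all others. The changes were small: 0.20 in R6/2 (0.10 to 0.29, adjusted p = 0.0041) and 0.21 in R6/2 x DREAM+/- against DREAM+/- (0.11 to 0.30, adjusted p = 0.00485).

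Stx12, an endosomal syntaxin, read 11.10, 11.11, 11.00 and 11.23 in R6/2 x DREAM+/-, 11.11, 11.31, 11.20 and 11.15 in R6/2, 10.92, 10.92, 10.90 and 10.89 in DREAM+/- and 10.89, 10.87, 10.93 and 10.92 in wild type. Again no transgenic array reached the others, with changes of 0.29 in R6/2 (0.18 to 0.40, adjusted p = 0.000758) and 0.20 in R6/2 x DREAM+/- (0.09 to 0.32, adjusted p = 0.0156). Without R6/2 x DREAM+/- replicate 4 the Stx12 change against DREAM+/- missed the threshold (adjusted p = 0.0558). Stx18, a syntaxin of the endoplasmic reticulum, rose by 0.19 in R6/2 (adjusted p = 0.0196), a call lost without R6/2 replicate 2 (adjusted p = 0.0708), and by 0.27 in R6/2 x DREAM+/- (adjusted p = 0.00381). All 5 Stx18 probe sets were higher in both comparisons, and 2 and 3 of them passed.

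Stx17, needed for fusion of autophagosomes with lysosomes, read 8.69, 8.77, 8.83 and 8.74 in R6/2 x DREAM+/-, 8.56, 8.62, 8.65 and 8.73 in R6/2, 8.47, 8.60, 8.63 and 8.65 in DREAM+/- and 8.48, 8.36, 8.46 and 8.43 in wild type. Each transgenic group lay above its own comparison group. The changes were 0.21 in R6/2 (0.09 to 0.32, adjusted p = 0.009) and 0.17 in R6/2 x DREAM+/- (0.06 to 0.28, adjusted p = 0.041), and the second did not hold without 1 of 7 arrays: R6/2 x DREAM+/- replicate 2, 3 or 4, R6/2 replicate 3, or DREAM+/- replicate 1, 2 or 3 (adjusted p up to 0.145). The second call was also lost with no filter, the mean of probe sets, the arrays shifted to a common median, array weights or only the 8 arrays compared. The same held without both arrays that stood apart and with either covariate. Of the 4 Stx17 probe sets, all were higher in R6/2 and 2 passed, whereas in R6/2 x DREAM+/- against DREAM+/- 2 had the opposite sign, the range was -0.06 to 0.19 and 0 passed in the fit of every probe set. Stx7, a late endosomal syntaxin named after its values were seen, rose in R6/2 by 0.23 (0.06 to 0.39, adjusted p = 0.0399). That call was lost without any 1 R6/2 array, without wild-type replicate 1, 2 or 4, with the arrays shifted to a common median and with Eif2s3y as a covariate. Stx7 differed by 0.18 in R6/2 x DREAM+/- against DREAM+/- (adjusted p = 0.141). The chosen probe sets of 6 tested release genes, Snap47, Stx18, Stx1a and Vamp3 among them, carry the suffix x, which marks possible hybridisation to other transcripts. Those of 3 more, Cplx2 and Syn3 among them, carry the suffix s, for probes shared by several transcripts.

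**Figure D3:**
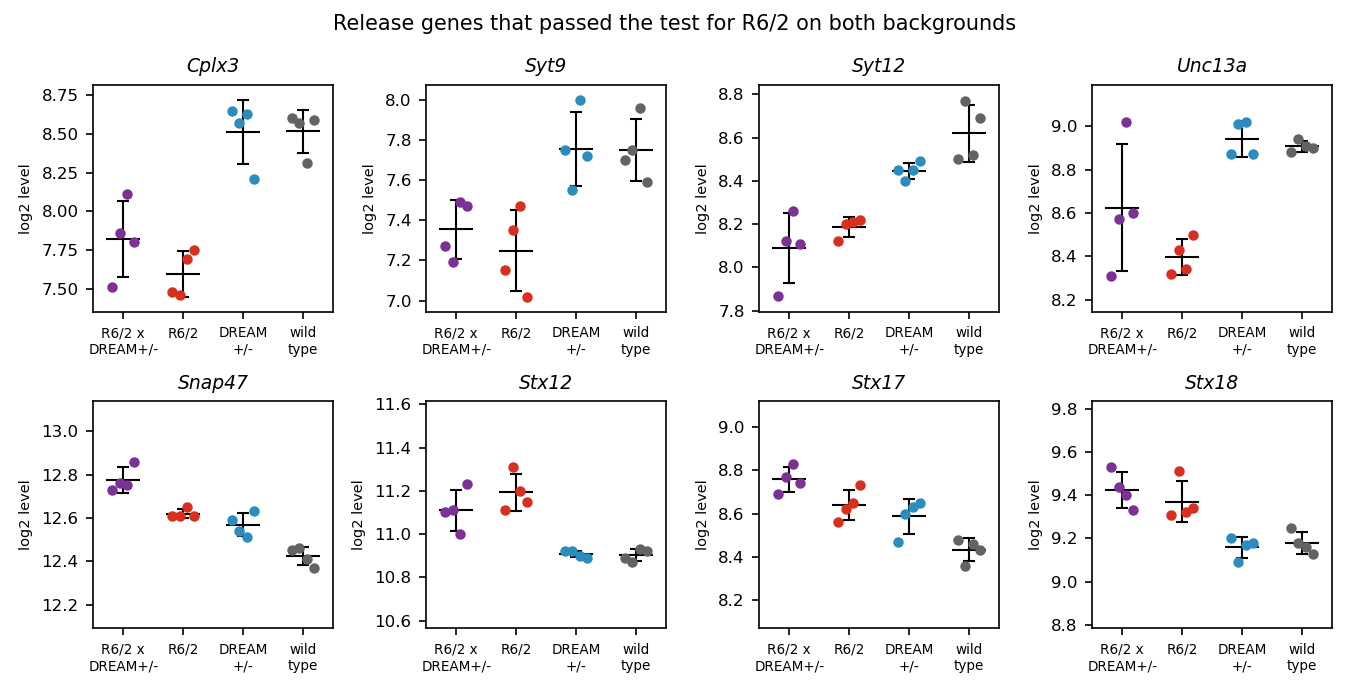
Log2 level on each array of the 8 release genes that passed in both transgene comparisons, in R6/2 x DREAM+/-, R6/2, DREAM+/- and wild type; points are arrays, and bars give the mean and SD (n = 4 each). Cplx3, Syt9, Syt12 and Unc13a (top) are lower with the transgene, and Snap47, Stx12, Stx17 and Stx18 (bottom) are higher.

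Between R6/2 x DREAM+/- and R6/2, 6 release genes differed. Snap47, Sv2b, Syt13 and Vamp8 rose and Syt6 and Vamp4 fell in R6/2 x DREAM+/-, 11.1% of those tested. Of all genes 14% passed, 5.33% higher and 8.65% lower. At an unadjusted p under 0.05 there were 19 release genes and 30.2% of all genes. The groups did not overlap for 5 higher and 3 lower release genes, against 6.24% and 9.59% of all genes, and the median change was -0.00, against -0.03 over all genes. The count moved with single arrays, as did the share of all genes. Without R6/2 x DREAM+/- replicate 3 the count was 15 (4 higher and 11 lower, 5 of the original 6 among them), with 20.8% of all genes. Without R6/2 replicate 1 it was 3, with 10.1% of all genes. It was 2 without R6/2 x DREAM+/- replicate 4 (9.44% of all genes) or R6/2 replicate 4 (8.2%), and 11 without wild-type replicate 3 (15.3%). Without both arrays that stood apart it was 10, all lower. Of the original 6, 2 were kept, Syt6 and Vamp4, and the calls of Snap47, Sv2b, Syt13 and Vamp8 were lost. In that fit 17.6% of all genes passed.

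Syt13, a synaptotagmin that does not bind calcium, read 8.55, 8.61, 9.23 and 8.98 in R6/2 x DREAM+/- and 8.16, 8.46, 8.42 and 8.31 in R6/2, against 8.85, 8.87, 8.77 and 8.78 in DREAM+/- and 8.61, 8.84, 8.52 and 8.89 in wild type. R6/2 arrays were the lowest, below every other array. Syt13 fell in R6/2 against wild type by 0.38 (-0.63 to -0.12, adjusted p = 0.0307), a call lost without R6/2 replicate 1 or 4 or wild-type replicate 2 or 4 (adjusted p up to 0.092). Syt13 rose in R6/2 x DREAM+/- against R6/2 by 0.51 (0.25 to 0.76, adjusted p = 0.013). That call was lost without both arrays that stood apart, which held its highest R6/2 x DREAM+/- value and its lowest R6/2 value. The other Syt13 probe set gave -0.47 and 0.43. The effect of the transgene on the DREAM+/- background was 0.03 (adjusted p = 0.922), and the difference between the 2 transgene effects, 0.40, did not pass (unadjusted p = 0.0318, adjusted p = 0.71).

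Sv2b, a vesicle protein prominent in cortical neurons, was also lowest in R6/2. It read 10.74, 10.96, 11.24 and 11.08 in R6/2 x DREAM+/-, 10.55, 10.78, 10.75 and 10.73 in R6/2, 11.00, 11.09, 11.06 and 10.94 in DREAM+/- and 10.92, 11.09, 10.88 and 10.94 in wild type. R6/2 lay below wild type on all arrays, and overlapped R6/2 x DREAM+/-. Sv2b fell in R6/2 by 0.26 (-0.43 to -0.08, adjusted p = 0.0363), a call lost without R6/2 replicate 1, 3 or 4 or wild-type replicate 1, 2 or 4 (adjusted p up to 0.113). That call was also lost without both arrays that stood apart and with Eif2s3y as a covariate. Sv2b rose in R6/2 x DREAM+/- against R6/2 by 0.30 (0.12 to 0.48, adjusted p = 0.0272), a call lost without R6/2 x DREAM+/- replicate 3 or 4 or R6/2 replicate 1 or 4 (adjusted p up to 0.0797).

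Markers of cortical projection neurons moved with Syt13 and Sv2b. The mean of 12 such markers lay at 8.51 to 8.80 in R6/2 x DREAM+/-, 8.03 to 8.43 in R6/2, 8.67 to 8.88 in DREAM+/- and 8.58 to 8.76 in wild type. Of these markers 6 of 12 fell in R6/2 against wild type, and 6 of 12 rose in R6/2 x DREAM+/- against R6/2. With the marker mean as a covariate the R6/2 change of Sv2b was 0.020 (adjusted p = 0.924) and that of Syt13 0.042 (adjusted p = 0.875). Their changes in R6/2 x DREAM+/- against R6/2 became 0.043 (adjusted p = 0.817) and 0.11 (adjusted p = 0.639). With the covariate, 12.1% of all genes passed in R6/2 against wild type, where 25.4% did without it. In R6/2 x DREAM+/- against R6/2 the shares were 5.57% with it and 14% without it. Of the release gene calls, 0 of the 6 in R6/2 x DREAM+/- against R6/2 remained, and 3 of the 12 in R6/2 against wild type did. Those 3 were Cplx3, at -0.63 (adjusted p = 0.0168), Snap47 at 0.25 (adjusted p = 0.0271) and Stx12 at 0.34 (adjusted p = 0.0131). Unc13a, Syt12, Syt9, Syt2, Stx17, Stx18 and Stx7 did not pass, with Unc13a at -0.31 (adjusted p = 0.173) and Syt12 at -0.27 (adjusted p = 0.0984). Syn1 and Unc13b passed with it, at 0.43 (adjusted p = 0.03) and 0.38 (adjusted p = 0.0101). Medium spiny neuron markers also fell, 10 of 12 in R6/2 against wild type and 11 of 12 in R6/2 x DREAM+/- against DREAM+/-, as did 8 of 10 interneuron markers in each. Every R6/2 array had a lower cortical marker mean than any array of the other genotypes. The covariate fit therefore cannot tell the R6/2 genotype from the cortical marker level. What part these marker differences had in the release gene changes was not tested.

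**Figure D4:**
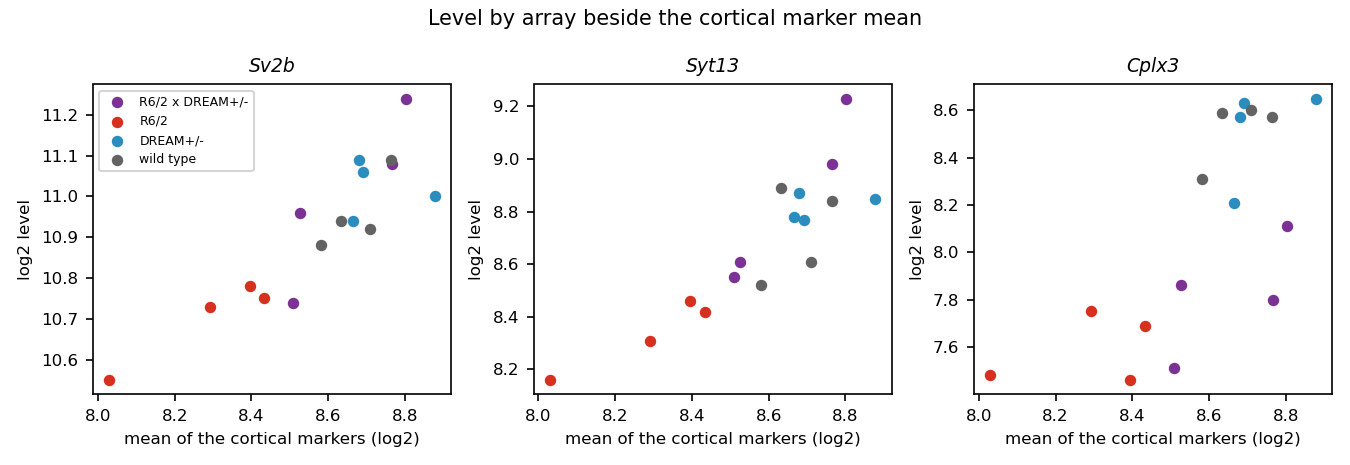
Log2 level of Sv2b, Syt13 and Cplx3 on each array (y axis) against the mean of 12 cortical projection neuron markers on that array (x axis, log2), with the 4 genotypes in different colours. R6/2 arrays hold the lowest marker means, 8.03 to 8.43, and low Sv2b and Syt13, whereas Cplx3 is low in both transgenic groups.

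Snap47 rose further in R6/2 x DREAM+/- against R6/2, by 0.16 (0.06 to 0.25, adjusted p = 0.0324), a call lost without R6/2 x DREAM+/- replicate 2 or 4 or R6/2 replicate 1, 2 or 4 (adjusted p up to 0.0964). Both Snap47 probe sets were higher there, and 0 passed in the fit of every probe set. Vamp8, an endolysosomal SNARE, read 8.61, 8.11, 8.45 and 8.50 in R6/2 x DREAM+/-, 8.04, 8.26, 8.05 and 7.66 in R6/2, 8.25, 8.10, 8.55 and 8.30 in DREAM+/- and 7.96, 7.68, 8.01 and 8.01 in wild type. Both groups heterozygous for DREAM were on the high side. The rise against R6/2 was 0.42 (0.15 to 0.68, adjusted p = 0.0382), lost without R6/2 x DREAM+/- replicate 1 or 4 or R6/2 replicate 1, 3 or 4 (adjusted p up to 0.126). The DREAM+/- difference from wild type was 0.39 (adjusted p = 0.105). Vamp4, a SNARE of the trans-Golgi network, read 10.95, 11.02, 10.91 and 10.97 in R6/2 x DREAM+/- against 11.14, 11.20, 11.10 and 11.13 in R6/2. The groups were apart, and the fall of 0.18 passed (-0.28 to -0.08, adjusted p = 0.016). Of the 3 Vamp4 probe sets 1 had the opposite sign, at 0.05.

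Syt6, a calcium-binding synaptotagmin, read 7.68, 7.85, 6.88 and 7.65 in R6/2 x DREAM+/-, against 7.98, 7.88, 7.94 and 8.01 in R6/2. Replicate 3 was far below the rest of its group, and the other R6/2 x DREAM+/- arrays were also below R6/2. The change was -0.44 (-0.73 to -0.15, adjusted p = 0.0434), and the call was lost without 1 of 10 arrays: R6/2 x DREAM+/- replicate 4, any DREAM+/- or R6/2 replicate, or wild-type replicate 2 (adjusted p up to 0.0991).

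**Figure D5:**
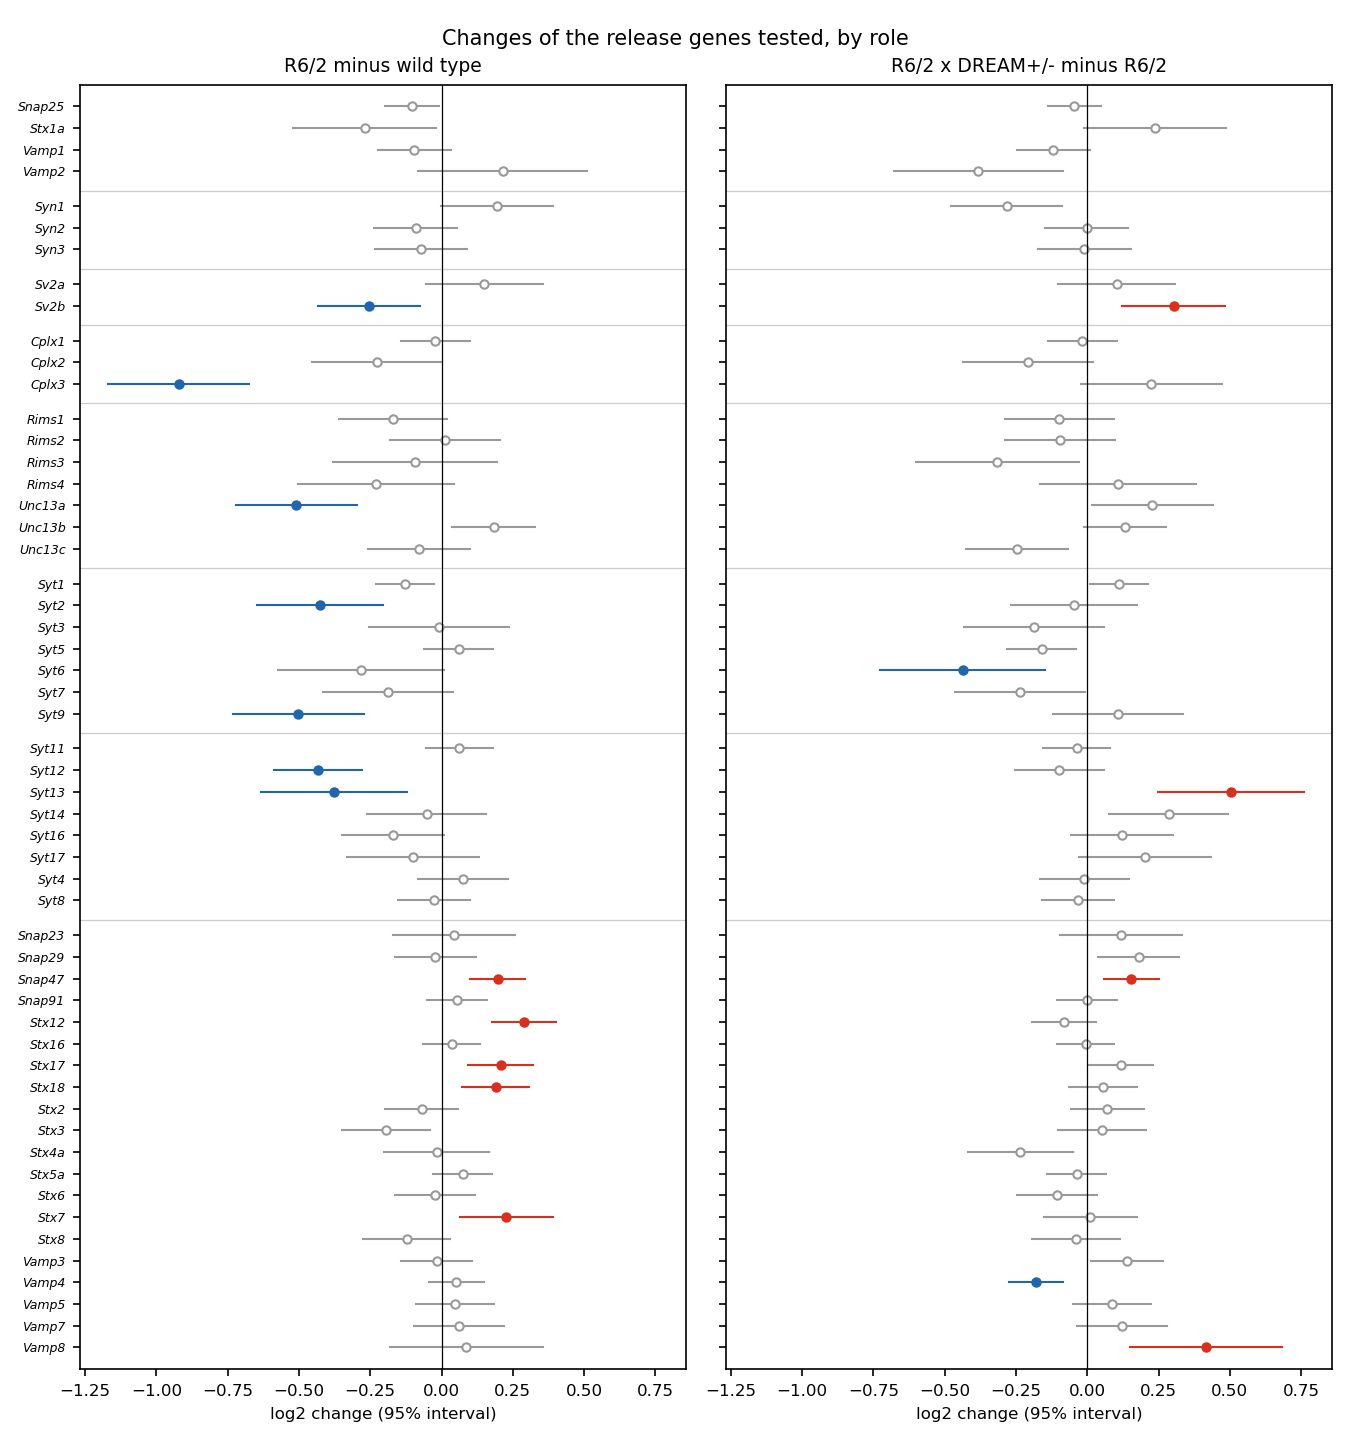
Log2 change with its 95% interval for the 54 tested release genes, grouped by role, in R6/2 against wild type (left) and in R6/2 x DREAM+/- against R6/2 (right); red marks genes that passed higher, blue lower, and open grey neither. As fitted, on the left the general-traffic SNAREs hold all 5 higher calls and the other groups all 7 lower calls. Over all genes 13.5% passed higher and 11.9% lower there. The split moved under alternatives, with Unc13b higher without R6/2 replicate 1 and Stx3 lower with array weights.

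Lowered DREAM without the transgene gave no release gene call. In DREAM+/- against wild type 0 of 54 passed in limma and 12 had an unadjusted p under 0.05. Of all genes 3.68% passed, 1.6% higher and 2.08% lower, and 18.4% had an unadjusted p under 0.05. The groups did not overlap for 2 higher and 6 lower release genes, against 4.57% and 7.94% of all genes. Snap47 came closest among the higher genes (0.15, adjusted p = 0.0886). The median change was -0.02, against -0.03 over all genes. Without R6/2 x DREAM+/- replicate 3 the count was 2, Syt4 and Syt6, both lower, with 5.4% of all genes. It was 1 without R6/2 x DREAM+/- replicate 1 (3.46% of all genes), R6/2 replicate 1 (3.4%) or R6/2 replicate 4 (3.37%). Without both arrays that stood apart it was 2, with 5.03% of all genes. The 2 comparisons of lowered DREAM share no groups with each other, but each shares its groups with the transgene comparisons. The fit took its spread from all 16 arrays.

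The difference between the transgene effects on the 2 backgrounds passed for 0 of 54 release genes and 0% of all genes in limma. At an unadjusted p under 0.05 it held 3 release genes, Syt4, Syt13 and Vamp4, and 6.9% of all genes. For Syt4 the difference was 0.26 (adjusted p = 0.701) and for Vamp4 -0.14 (adjusted p = 0.717). For Cplx3 it was 0.23, with a 95% interval of -0.12 to 0.58. A miss does not show that the transgene effects were equal.

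Other presynaptic genes were read from a list of 52, of which 48 were tested. In R6/2 against wild type 3 rose and 12 fell, 31.2% of those tested, against 25.4% of all genes (13.5% higher and 11.9% lower). Erc2, the active zone scaffold CAST, averaged 11.01 ± 0.09 in R6/2 x DREAM+/-, 10.74 ± 0.08 in R6/2, 11.32 ± 0.04 in DREAM+/- and 11.11 ± 0.07 in wild type (SD, n = 4). It fell in R6/2 by 0.38 (adjusted p = 0.000127), fell in R6/2 x DREAM+/- against DREAM+/- by 0.31 (adjusted p = 0.00119), and rose in R6/2 x DREAM+/- against R6/2 by 0.27 (adjusted p = 0.00627). Bsn, the active zone scaffold Bassoon, fell in R6/2 by 0.50 (adjusted p = 0.00333), and Synpr, the vesicle protein synaptoporin, by 0.39 (adjusted p = 0.000309). Cadps2, which primes dense-core vesicles, averaged 9.35 ± 0.22 in R6/2 x DREAM+/-, 8.51 ± 0.24 in R6/2, 9.50 ± 0.11 in DREAM+/- and 9.19 ± 0.12 in wild type. It fell in R6/2 by 0.68 (adjusted p = 0.000311) and rose in R6/2 x DREAM+/- against R6/2 by 0.85 (adjusted p = 0.000198). R6/2 was its lowest group, as for Syt13, Sv2b and the cortical marker mean.

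Against DREAM+/-, R6/2 x DREAM+/- had 1 of these genes higher and 4 lower, where 7.07% and 7.87% of all genes were. Syp, the vesicle protein synaptophysin, rose by 0.35 (adjusted p = 0.0214), and Slc18a3, the vesicular acetylcholine transporter, fell by 0.41 (adjusted p = 0.0134), as it did in R6/2 against wild type by 0.35 (adjusted p = 0.0206). The mean of the striatal interneuron markers lay at 8.17 to 8.39 in R6/2 x DREAM+/-, 8.18 to 8.32 in R6/2, 8.61 to 8.66 in DREAM+/- and 8.55 to 8.66 in wild type, and the cholinergic marker Chat itself, at 5.05 over all arrays, was below the brightness filter. Between R6/2 x DREAM+/- and R6/2, 4 rose and 3 fell, 14.6% against 14% of all genes. Among the lower ones were Syngr3, the vesicle protein synaptogyrin-3, by 0.26 (adjusted p = 0.0091), and Slc32a1, the vesicular GABA transporter, by 0.24 (adjusted p = 0.0109). In DREAM+/- against wild type 0 of 48 passed, against 3.68% of all genes.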

How the data were processed

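Whole-striatum total RNA was labelled as biotin cRNA and hybridised to 1-colour Affymetrix mouse genome arrays, per the labels' protocols. The authors' deposited table holds log2 levels of 45101 probe sets in 16 columns, 1 for each array. The submitters' processing notes name RMA and affy without saying which step each served. RMA gives all arrays the same distribution, which would hide a shift common to most genes. No genome build is stated in those notes. The number of arrays limits the precision, and no 2 replicates were identical (correlations of 0.9903 to 0.998). Nothing in the labels says that the biological replicates were single animals, so p-values measure the spread between these samples.

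Genotypes and replicate numbers were read from the titles. The platform annotation gave 34945 probe sets 1 gene symbol, 932 several and 9160 none, and 64 probe sets were controls. Probe sets with several symbols or none were not used, and all 60 release genes matched the RefSeq gene table by Entrez identifier. The brightness filter of 5.94, set at the 40th percentile of all probe-set means, left 13011 genes. Differences were tested with limma 3.58.1 (lmFit and eBayes, R 4.3.3) with the log2 levels of all 16 arrays, a mean for each genotype and no covariate. Genes with a Benjamini-Hochberg adjusted p below 0.05, over all genes tested, were said to pass. Intervals are 95% and unadjusted. A second fit took each of the 34945 probe sets on its own.

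The release genes, role groups, marker lists and tests were chosen with earlier results of these data known. Named genes were a fixed set of core release genes, per comparison the 6 other members and 4 other presynaptic genes with the lowest unadjusted p, and Kcnip3; any other is named as chosen later, or only counted as having passed. Replicate numbers are shared between genotypes but were not taken as pairs, because in no comparison did every same-numbered pair of deviations correlate above 0.1 (range -0.114 to 0.287). Alternatives were another filter, the mean of a gene's probe sets, further normalizations, a trended robust variance, array weights, a replicate block, only the arrays compared, single arrays left out, both arrays that stand apart left out, and the cortical marker mean or Eif2s3y as a covariate. Tested on simulated data of 13011 genes, the fit of R6/2 against wild type found 60% of the changes with a log2 size of 0.3, 98% of those of 0.5 and 100% of those of 1.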

Additional observations from a re-analysis of the deposited data

Results flagged for a closer look

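Of 192 groups of 4 arrays examined among the named genes, 11 held 1 array far from the other 3, where chance gives about 1 in 20. Of these, 3 lay in R6/2 x DREAM+/- replicate 3: Snap25 at 13.24 (the others at 13.33 to 13.34), Syp at 11.50 (11.12 to 11.14) and Rph3a, which encodes rabphilin, at 10.75 (10.13 to 10.20). Syn3 read 8.32 in R6/2 x DREAM+/- replicate 4, against 8.64 to 8.70 on the others. In R6/2, Vamp2 read 12.07 on replicate 1 (12.25 to 12.27), Stx18 read 9.51 on replicate 2 (9.31 to 9.34) and Snap47 read 12.65 on replicate 3, where the others all read 12.61. In DREAM+/-, Stx1a read 10.77 on replicate 1 (10.46 to 10.49) and Vamp4 read 11.00 on replicate 4 (11.06 to 11.07). In wild type, Vamp8 read 7.68 on replicate 2 (7.96 to 8.01) and Cplx3 read 8.31 on replicate 3 (8.57 to 8.60). Stx18 in R6/2 against wild type is the call that such an array decided, as given above. The difference between the transgene effects on the 2 backgrounds passed for 0 of the 54 release genes in limma.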

How the results depend on the processing

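Of 6652 values of named genes under alternatives, 6353 kept their side of the threshold, 141 lost a call, 155 gained one and 3 reversed. Of those that kept their side, 220 changed sign without passing either way, and 18 of 47 calls held under every alternative. The reversals were Sv2b (0.020, adjusted p = 0.924) and Syt13 (0.042, adjusted p = 0.875) in R6/2 against wild type with the cortical covariate, and Cplx2 in R6/2 x DREAM+/- against R6/2 with the mean of its probe sets (0.33, adjusted p = 0.0227); the cause was not tested. Leaving out 1 array gave 9 to 15 release gene calls in R6/2 against wild type, 8 to 18 in R6/2 x DREAM+/- against DREAM+/-, 0 to 2 in DREAM+/- against wild type, 2 to 15 in R6/2 x DREAM+/- against R6/2 and 0 in the interaction. In R6/2 x DREAM+/- against R6/2, 8.2% of all genes passed without R6/2 replicate 4 and 20.8% without R6/2 x DREAM+/- replicate 3. In R6/2 against wild type the cortical covariate gave 5 calls, 3 of them among the original 12, with 12.1% of all genes. For R6/2 x DREAM+/- against DREAM+/-, array weights gave 17 (20.6% of all genes) and leaving out both arrays that stand apart 18 (17.4%). In DREAM+/- against wild type there was 1 call with the 60th percentile filter (4.32% of all genes), the mean of probe sets (4.11%), array weights (6.91%), the replicate block (3.34%) or Eif2s3y as a covariate (2.52%). There were 2 with trended robust variance (3.87%), only the 8 arrays compared (4.51%), or both arrays left out (5.03%). For R6/2 x DREAM+/- against R6/2, 10 passed with the mean of probe sets (13.7% of all genes), with every probe set on its own (7.76% of all probe sets) or without both arrays (17.6% of all genes). There were 14 with array weights (18.6%), 2 with only the 8 arrays (8.2%) and 3 with the cortical covariate (5.57%), which kept 0 of the original 6. Replicate numbers were not taken as pairs, and same-numbered deviations correlated at -0.114 to 0.287. In 8 of 16 checks, 4 for each pairwise comparison, an array correlated best with its own number among the 4 arrays of the other group. That is a hint from the data and not from the design. With the replicate block the counts were 12, 11, 1 and 6 in the order of comparisons above, and 0 in the interaction. The shares of all genes were 25.7%, 15%, 3.34% and 13.1% in that order, and 0% in the interaction. The block took away the calls of Stx7 and Syngr3 in R6/2 against wild type and of Syt6 in R6/2 x DREAM+/- against R6/2 (adjusted p = 0.053), and gave calls for Stx3, Unc13c and Syt4, DREAM+/- against wild type being the comparison for Syt4 (adjusted p = 0.0444). The interaction gave 0 calls under every alternative run in limma, with 3 at an unadjusted p under 0.05 as reported. With 4 arrays a group, 20% of differences of 0.3 (log2) put into simulated data were recovered in the interaction, against 60% in R6/2 against wild type. In the simulations few genes changed and the noise was independent, so these rates need not hold in the real data.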

Other observations

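Several release genes that passed nowhere on their brightest probe set had another probe set that did, in a fit of all 34945 single-symbol probe sets. In R6/2 x DREAM+/- against R6/2, 14 of the 138 release gene probe sets passed, 7 higher and 7 lower, from 10 genes (7.76% of all probe sets passed). A Cplx2 probe set was higher by 1.28 (adjusted p = 0.0128), while the other probe sets of the same gene differed by -0.10 and -0.21 and did not pass. A Cplx1 probe set fell by 0.41 (adjusted p = 0.00449). Of the Rims2 probe sets, 2 fell, by 0.28 and 0.32. Of the Syt11 probe sets, 2 fell, by 0.34 and 0.39. Syt11 encodes a synaptotagmin that does not bind calcium.

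Rims1, the founding RIM scaffold, had a second probe set that fell in R6/2 against wild type by 0.25 (adjusted p = 0.0129) and rose in R6/2 x DREAM+/- against R6/2 by 0.33 (adjusted p = 0.00419). The brighter Rims1 probe set passed in neither comparison. In R6/2 against wild type 19 of the 138 probe sets passed, 10 higher and 9 lower, from 13 genes, and in R6/2 x DREAM+/- against DREAM+/- 15 passed, 9 higher and 6 lower, from 11 genes. All probe sets gave 13.2% and 6.93% in these comparisons. No release gene probe set passed in DREAM+/- against wild type, where 2.26% of all probe sets did. These probe sets were singled out after their values were seen, and which transcript each one reads was not tested.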
